A study of Homo sapiens with 6 samples.

Results

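The genes described here are 40 genes of mitosis, of the 46427 genes in the deposited table, chosen by symbol: CDK1 and its cyclins, the mitotic and spindle checkpoint kinases, kinesins, centromere and kinetochore proteins, the ubiquitin machinery of anaphase, spindle and cytokinesis proteins, TOP2A, MKI67 and the transcription factor FOXM1. All 40 had a row in the table and passed the filter on low counts. The samples were VK2/E6E7 cells. That human vaginal epithelial line was immortalised with the papillomavirus genes E6 and E7 and is labelled wild type. One group was given lactic acid bacteria, Lactobacillus salivarius HHuMin-U (HMU), for 6 h at a dose of 1e8 CFU/mL, and the other was given PBS for 6 h. All samples came from that 1 line, each group had 3 biological replicates, and RNA was measured by stranded mRNA sequencing. Setting HMU against PBS asks how the bacterium changed transcript levels in these epithelial cells.

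Entry into mitosis is driven by the kinase CDK1 bound to cyclin B. Aurora and Polo-like kinases then build the spindle, kinesins move and arrange its microtubules, and kinetochores attach chromosomes to it. The spindle checkpoint holds back the anaphase-promoting complex, a ubiquitin ligase, until all chromosomes are attached; its coactivator CDC20 then starts the breakdown of cyclin B and securin. Transcripts of these genes are low in resting and early cycling cells and peak in G2 and mitosis, through FOXM1 and through the MuvB complex with B-MYB. Papillomavirus E7 binds the retinoblastoma protein and its relatives and E6 leads to breakdown of p53, so that such cell lines keep cycling.

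Libraries held 64292566 to 65957584 counts. Levels within a gene are given as CPM, counts scaled to a common library size with TMM factors, which centres the bulk of genes between libraries, and levels between genes as the deposited TPM, which is scaled by transcript length. HMU replicate 2 stood apart. Its counts differed from those of HMU replicates 1 and 3 by a chi-square of 63.7 and 109 per degree of freedom, against 13.5 between those 2 and 4.87 to 5.91 among PBS libraries. The scaling also matters for small changes. Over the 17990 tested genes the median log2 fold change of HMU over PBS (log2 change) was -0.0025 with TMM, and it was -0.28 when libraries were scaled by size only. Changes are therefore relative to the TMM scale unless another is named. Of 8 squamous epithelial markers all were detected, 3 were called higher and 1 lower, and their median log2 change was 0.21 (and -0.068 with library sizes only). Marker levels are given here as deposited TPM, which is not on the TMM scale. On log2(TPM + 1) the median change over all tested genes was -0.27. KRT5 stood at 29331 to 30274 TPM in HMU and 36379 to 37086 TPM in PBS libraries, and KRT13 at 135 to 162 TPM in HMU and 45.6 to 53.4 TPM in PBS libraries. DSG3 stood at 107 to 216 TPM in HMU and 349 to 380 TPM in PBS libraries. Summed levels of 3 endothelial markers were 0.662 to 1.08 TPM in HMU and 0.120 to 0.195 TPM in PBS libraries. Leukocyte markers summed to 6.42 to 9.87 TPM in HMU and 2.33 to 2.80 TPM in PBS libraries, nearly all of it CD14, while PTPRC stood at 0 to 0.0233 TPM in HMU and 0 to 0.0625 TPM in PBS libraries. Of 4 fibroblast markers, COL1A1 made up most of a sum of 30.7 to 34.4 TPM in HMU and 48.8 to 52.4 TPM in PBS libraries. On the TMM scale all 3 endothelial markers were called higher, at these low levels (median log2 change 4.33). The 1 leukocyte marker that passed the filter was called higher (2.14). Of 3 fibroblast markers that passed it, 2 were called lower (median -0.28). The part of all these markers in the results was not tested.

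After HMU most kinesin, kinetochore and spindle genes of the set fell by modest amounts, while CDK1, most mitotic kinases and the genes of anaphase ubiquitination did not pass the test for a fall. That division belongs to the TMM scale, and no difference between roles was tested. With library sizes only AURKB, PLK1, NEK2 and CDC20 were also called lower. With the length and GC correction described below AURKB and CDC20 were called lower, and CDK1, UBE2C and KIF23 higher. Of the 40 genes, 21 were called lower and 1 higher at an edgeR quasi-likelihood adjusted p under 0.05, where 24.9% of all tested genes were called lower and 24.8% higher. The median log2 fold change of the set was -0.29, against -0.0025 over all tested genes. Of the 40 fitted changes 35 were negative, where 50.2% of those of all tested genes were. Some of the 35, such as those of AURKB and NEK2, lay near 0 and turned sign in other settings. The largest falls were those of HMMR, CENPE, CENPF and ANLN, which were 44.9%, 43.9%, 42.2% and 40.4% lower in HMU by the fitted ratio, and the only rise was that of UBE2C. In TMM-scaled CPM all 3 HMU libraries lay below all 3 PBS libraries for 26 genes, where 32.0% of all tested genes did so, and above them for 2 genes, where 30.3% did. In these bulk samples fewer cells in mitosis and less mitotic RNA per cell cannot be told apart.

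The set as a whole took a smaller share of each HMU library. Its 40 genes held 0.292%, 0.276% and 0.311% of counts in HMU replicates 1 to 3, against 0.433%, 0.432% and 0.421% in PBS replicates 1 to 3. Summed over the set, the deposited TPM came to 2348, 2220 and 2488 in HMU and to 3363, 3380 and 3319 in PBS libraries. Neither measure overlapped between the groups, and neither is corrected for the shift of the whole transcriptome that TMM removes. With library sizes only, 37 of the 40 genes were called lower and 0 higher, where 43.7% of tested genes were lower and 13.4% higher. Of the 21 genes called lower on the TMM scale, 14 were called lower in all 19 alternatives tried. They were CCNB2, BUB1, BUB1B, KIF4A, KIF11, KIF18A, KIF20A, CENPE, CENPF, NDC80, NUF2, HMMR, ANLN and FOXM1. The same share over all tested genes was not counted, so the 14 cannot be set against a background. The alternatives are not independent, and they include the TMM fit itself at a stricter threshold. Library sizes only and TPM, also among them, shift the whole transcriptome down. On log2(TPM + 1) 50.9% of all tested genes were called lower.

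**Figure D1:**
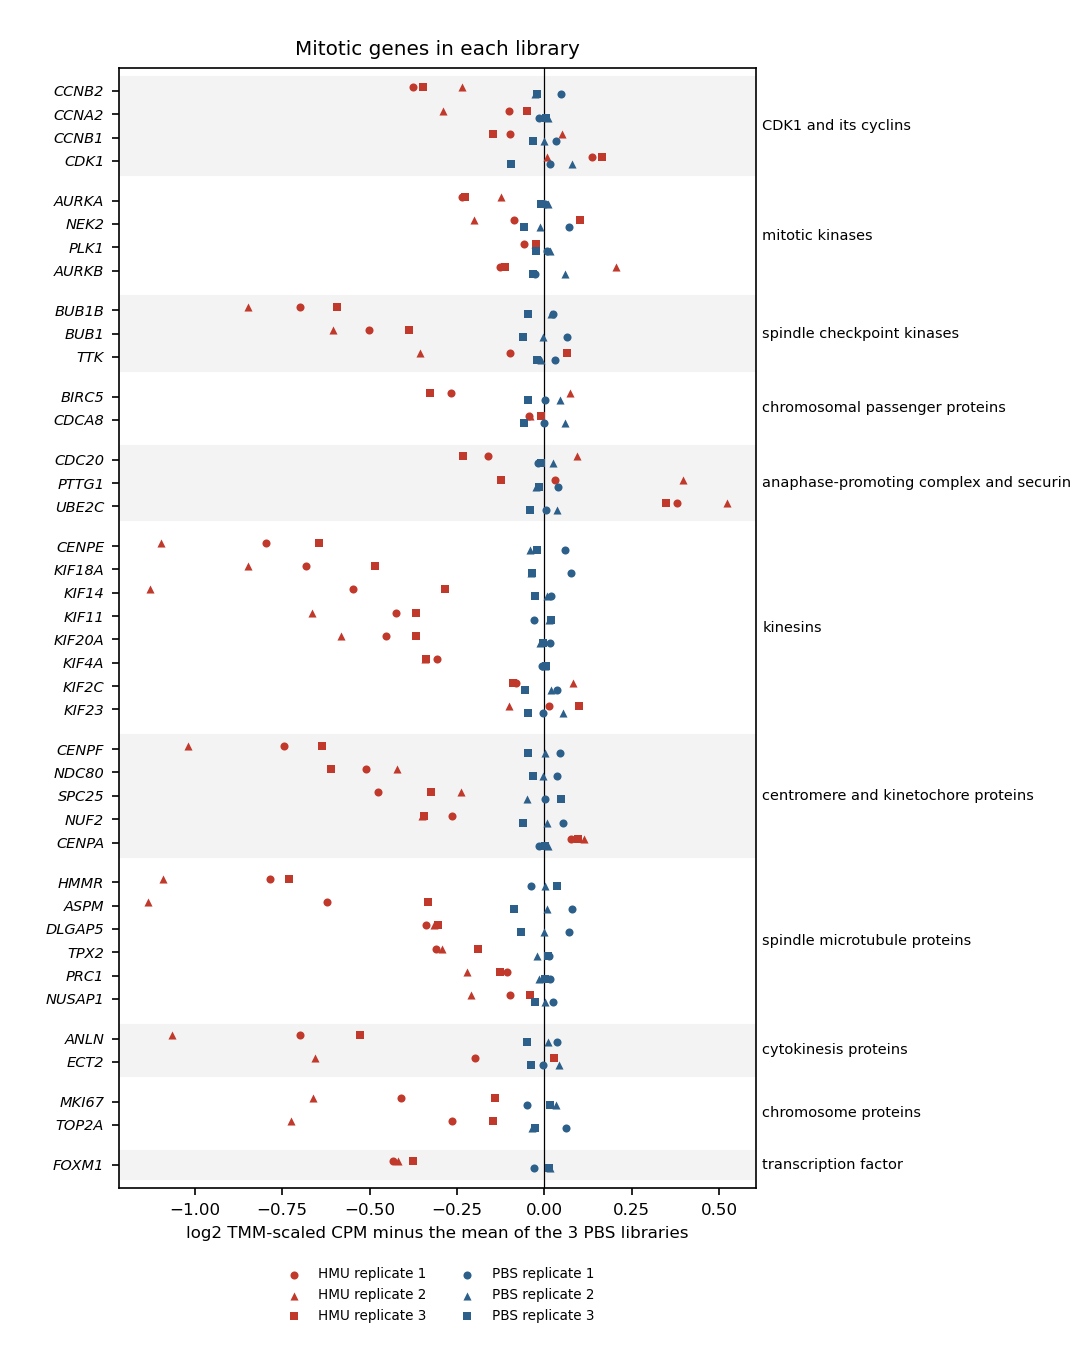
Each row is 1 of the 40 mitotic genes, grouped by role, and each point is 1 library: log2 of TMM-scaled CPM minus the mean of the 3 PBS libraries, with HMU in red, PBS in blue and the marker shape giving the replicate. PBS points stay close to 0, while HMU points lie to the left for most kinesins, kinetochore and spindle proteins, farthest for HMU replicate 2 in long genes such as CENPE, CENPF and ASPM.

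A few promoters are shown because they hold the sequence element through which mitotic genes are known to be switched, in genes that fell (HMMR, BUB1B and CCNB2) and in one that was not called (PLK1). The CHR element TTTGAA, the binding site of MuvB, and the CCAAT box CCAAT, the site of NF-Y, were searched on both strands in a window around the start given by RefSeq (GRCh38.p14), most of it upstream. Overlapping matches were counted, and both motifs are in capitals, read in the direction of the gene.
HMMR: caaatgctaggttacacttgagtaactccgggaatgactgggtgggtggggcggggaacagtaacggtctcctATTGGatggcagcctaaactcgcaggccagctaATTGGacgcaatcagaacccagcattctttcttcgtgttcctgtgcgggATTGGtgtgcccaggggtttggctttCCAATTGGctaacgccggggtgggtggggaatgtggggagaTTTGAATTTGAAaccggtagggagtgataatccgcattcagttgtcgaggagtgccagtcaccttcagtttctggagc
BUB1B: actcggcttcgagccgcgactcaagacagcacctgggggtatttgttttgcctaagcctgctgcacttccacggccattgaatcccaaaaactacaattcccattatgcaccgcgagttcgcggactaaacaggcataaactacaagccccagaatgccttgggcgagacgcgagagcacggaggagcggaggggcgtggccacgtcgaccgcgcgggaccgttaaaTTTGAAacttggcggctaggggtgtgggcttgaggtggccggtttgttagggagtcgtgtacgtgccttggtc
CCNB2: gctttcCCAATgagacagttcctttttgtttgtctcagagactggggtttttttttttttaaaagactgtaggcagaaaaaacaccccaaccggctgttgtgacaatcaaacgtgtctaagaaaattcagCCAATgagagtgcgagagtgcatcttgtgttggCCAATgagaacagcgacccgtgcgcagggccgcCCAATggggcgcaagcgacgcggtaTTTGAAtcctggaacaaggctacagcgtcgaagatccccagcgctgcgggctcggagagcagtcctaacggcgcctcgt
PLK1: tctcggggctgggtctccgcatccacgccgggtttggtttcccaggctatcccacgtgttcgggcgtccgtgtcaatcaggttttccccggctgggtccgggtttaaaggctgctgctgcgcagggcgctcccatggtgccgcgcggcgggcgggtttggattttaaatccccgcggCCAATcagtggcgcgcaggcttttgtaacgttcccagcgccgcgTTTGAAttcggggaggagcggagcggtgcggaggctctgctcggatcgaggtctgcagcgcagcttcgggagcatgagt
These windows are chr5:163460382-163460681 on the + strand, chr15:40160819-40161118 on the + strand, chr15:59104896-59105195 on the + strand and chr16:23678639-23678938 on the + strand. The table of promoters held 34 of the 40 genes. Of these, 25 held at least 1 CHR match (73.5%), against 15.2% of all 35114 RefSeq promoters of that length, and 28 held a CCAAT box (82.4%), against 34.6% of all. Both motifs stood together in 21 of the 34 (61.8%), against 5.90% of all promoters. The CHR match was found in 15 of 18 promoters of genes called lower and in 10 of 16 promoters of genes not called. Only TTTGAA and its reverse complement were counted, so variant forms of the element were missed, and no difference between these groups was tested. UBE2C, the gene called higher, was not among the 34. HMMR carried a pair of adjacent CHR matches with 5 CCAAT matches, while BUB1B carried 1 CHR match and no CCAAT. A match describes the letters in the window and is no measure of binding.

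FOXM1, the forkhead factor that activates G2 and mitotic genes, fell. FOXM1 (gene ID 2305) lies on chromosome 12 from 2857680 to 2877174. It had 70.5, 71.2 and 73.3 CPM in HMU replicates 1 to 3, against 93.2, 96.3 and 96.03 CPM in PBS replicates 1 to 3. The groups did not overlap, and replicates of each group lay close together (log2 change -0.41 ± 0.061 SE, edgeR adjusted p = 0.0011). The log2 change was -0.49 when each library's trend on transcript length and GC content was removed, as described below, and -0.40 without HMU replicate 2. Of its exonic bases, 15.9% overlap ITFG2 on the opposite strand in GENCODE 29 and the use of strand in counting was not stated.

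CDK1 and its cyclins did not move together. CDK1, the kinase that drives mitotic entry, had 73.2, 66.9 and 74.6 CPM in HMU replicates 1 to 3, against 67.3, 70.3 and 62.3 CPM in PBS replicates 1 to 3. CDK1 (gene ID 983) lies on chromosome 10 from 60778331 to 60794852. The groups overlapped, HMU replicate 2 being below PBS replicates 1 and 2, and the gene was not called (log2 change 0.10 ± 0.078 SE, edgeR adjusted p = 0.3). Without HMU replicate 2 it was called higher (0.15, edgeR adjusted p = 0.046). Its direction depended on the scaling: the fitted value was -0.18 under library sizes only and 0.25 with the length and GC correction (edgeR adjusted p = 0.0058). CCNB1, cyclin B1, stood at 142, 158 and 138 CPM in the HMU libraries and 156, 153 and 149 CPM in the PBS libraries, overlapping and not called (log2 change -0.062 ± 0.072 SE, edgeR adjusted p = 0.5). Its change was 0.021 with the length and GC correction, and without HMU replicate 2 it was called lower (-0.12, edgeR adjusted p = 0.037). CCNB2, cyclin B2, had 59.1, 65.2 and 60.3 CPM in HMU replicates 1 to 3, against 79.3, 75.3 and 75.5 CPM in PBS replicates 1 to 3. CCNB2 (gene ID 9133) lies on chromosome 15 from 59105146 to 59125045. Every HMU library lay below every PBS library, and CCNB2 fell (log2 change -0.32 ± 0.069 SE, edgeR adjusted p = 0.007). For CCNA2, cyclin A2, the levels were 85.9, 75.4 and 88.9 CPM in the HMU libraries and 91.1, 92.8 and 92.4 CPM in the PBS libraries. The groups did not overlap, but HMU replicates 1 and 3 were close to the PBS libraries and the gene was not called (log2 change -0.14 ± 0.078 SE, edgeR adjusted p = 0.16), and the length and GC correction turned its sign to 0.011.

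Of the mitotic kinases AURKA fell slightly and the rest were not called. AURKA, the Aurora kinase of the spindle poles, had 153, 165 and 154 CPM in HMU replicates 1 to 3, against 181, 182 and 179 CPM in PBS replicates 1 to 3. AURKA (gene ID 6790) lies on chromosome 20 from 56369390 to 56392215. All HMU values lay below the narrow PBS range (log2 change -0.19 ± 0.062 SE, edgeR adjusted p = 0.032). The call ended without any 1 of the 3 PBS libraries, HMU replicate 1 or HMU replicate 3 (edgeR adjusted p from 0.053 to 0.12), while the fold change stayed between -0.20 and -0.18 there. PLK1, the Polo-like kinase of mitotic entry and spindle poles, was at 87.1, 88.9 and 89.1 CPM in the HMU libraries and 91.2, 91.6 and 89.1 CPM in the PBS libraries and was not called (log2 change -0.037 ± 0.059 SE, edgeR adjusted p = 0.63). AURKB, the Aurora kinase of the chromosomal passenger complex, was at 42.1, 52.9 and 42.5 CPM in the HMU libraries and 45.0, 47.9 and 44.9 CPM in the PBS libraries. Only HMU replicate 2 lay above the PBS libraries (log2 change -0.0034 ± 0.10 SE, edgeR adjusted p = 0.98); with the length and GC correction the log2 fold change was -0.23 (edgeR adjusted p = 0.0055), and with DESeq2 or RLE scaling it turned to 0.0055. NEK2, a kinase of centrosome separation, had 29.2, 26.9 and 33.3 CPM in the HMU libraries and 32.5, 30.7 and 29.7 CPM in the PBS libraries and overlapped (log2 change -0.057 ± 0.094 SE, edgeR adjusted p = 0.64; 0.044 with the correction).

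The spindle checkpoint kinases BUB1 and BUB1B fell, and TTK was not called. BUB1B, which encodes the checkpoint protein BUBR1 that inhibits CDC20, had 36.1, 32.5 and 38.8 CPM in HMU replicates 1 to 3, against 59.6, 59.4 and 56.7 CPM in PBS replicates 1 to 3. BUB1B (gene ID 701) lies on chromosome 15 from 40161069 to 40221123. HMU replicate 2 was lowest, and the highest HMU value was far below the lowest PBS value (log2 change -0.71 ± 0.083 SE, edgeR adjusted p = 0.00035). A readthrough transcript with PAK6 shares 10.2% of its exonic bases. BUB1, a checkpoint kinase that also marks centromeric chromatin, was at 49.0, 45.7 and 53.1 CPM in the HMU libraries and 72.6, 69.2 and 66.5 CPM in the PBS libraries, again without overlap (log2 change -0.50 ± 0.080 SE, edgeR adjusted p = 0.0017). BUB1 (gene ID 699) lies on chromosome 2 from 110637528 to 110678063. Both stayed lower with the length and GC correction, at -0.54 for BUB1B and -0.31 for BUB1. TTK, the checkpoint kinase also called MPS1, had 40.7, 34.1 and 45.7 CPM in the HMU libraries and 44.6, 43.4 and 43.0 CPM in the PBS libraries. HMU replicate 2 was its lowest and HMU replicate 3 its highest library, so that the groups overlapped (log2 change -0.12 ± 0.11 SE, edgeR adjusted p = 0.39), and the correction turned its sign to 0.11.

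Neither chromosomal passenger gene was called. BIRC5, survivin, had 62.2, 78.7 and 59.7 CPM in the HMU libraries and 75.0, 77.2 and 72.5 CPM in the PBS libraries. HMU replicates 1 and 3 lay below all PBS libraries and HMU replicate 2 above them (log2 change -0.16 ± 0.11 SE, edgeR adjusted p = 0.25); without HMU replicate 2 it was called lower (-0.29, edgeR adjusted p = 0.00059). CDCA8, borealin, was at 49.4, 49.5 and 50.6 CPM in the HMU libraries and 50.9, 53.1 and 48.9 CPM in the PBS libraries and overlapped (log2 change -0.033 ± 0.066 SE, edgeR adjusted p = 0.7).

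The ubiquitin machinery of anaphase held the rise of the set. UBE2C, the E2 enzyme that works with the anaphase-promoting complex, had 148, 163 and 145 CPM in HMU replicates 1 to 3, against 114, 117 and 110.4 CPM in PBS replicates 1 to 3. UBE2C (gene ID 11065) lies on chromosome 20 from 45812644 to 45816952. The lowest HMU library was above the highest PBS library, and UBE2C rose (log2 change 0.42 ± 0.071 SE, edgeR adjusted p = 0.0022), with log2 fold changes of 0.23 under the length and GC correction (edgeR adjusted p = 0.0037) and 0.37 without HMU replicate 2 (edgeR adjusted p = 6.5e-05). That rise is relative to the TMM scale: the change was 0.14 with library sizes only (edgeR adjusted p = 0.12) and 0.012 on log2(TPM + 1) (limma adjusted p = 0.84), neither of which passed. CDC20, the coactivator that the checkpoint holds back, had 163, 194 and 155 CPM in the HMU libraries and 179.6, 185 and 181 CPM in the PBS libraries. As for BIRC5, HMU replicate 2 was the highest of all libraries and HMU replicates 1 and 3 the lowest (log2 change -0.094 ± 0.092 SE, edgeR adjusted p = 0.43). CDC20 was called lower without HMU replicate 2 (-0.19, edgeR adjusted p = 0.0032) and with the correction (-0.29, edgeR adjusted p = 0.00059). PTTG1, securin, which restrains the cohesin protease, was at 84.2, 109 and 75.7 CPM in the HMU libraries and 84.7, 81.1 and 81.6 CPM in the PBS libraries. Its positive fitted change (log2 change 0.12 ± 0.13 SE, edgeR adjusted p = 0.47) rested on HMU replicate 2 and was -0.043 without it, -0.051 with the length and GC correction and -0.17 with library sizes only.

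Of 8 kinesins 6 fell and 2 were not called. CENPE, the kinetochore kinesin that moves chromosomes to the metaphase plate, had 46.2, 37.5 and 51.4 CPM in HMU replicates 1 to 3, against 83.7, 78.1 and 79.2 CPM in PBS replicates 1 to 3. CENPE (gene ID 1062) lies on chromosome 4 from 103105811 to 103198343. HMU replicate 2 was lowest, and the groups were far apart (log2 change -0.83 ± 0.12 SE, edgeR adjusted p = 0.00081); its change was -0.36 with the length and GC correction. KIF18A, which dampens chromosome oscillation, was at 17.2, 15.3 and 19.7 CPM in the HMU libraries and 29.1, 26.9 and 26.9 CPM in the PBS libraries, without overlap (log2 change -0.66 ± 0.10 SE, edgeR adjusted p = 0.0014; -0.35 corrected). KIF18A (gene ID 81930) lies on chromosome 11 from 28020619 to 28108156. KIF20A, a kinesin of the central spindle, had 77.4, 70.8 and 82.2 CPM in the HMU libraries and 107, 105 and 106 CPM in the PBS libraries. KIF20A (gene ID 10112) lies on chromosome 5 from 138179112 to 138187723. It too did not overlap (log2 change -0.46 ± 0.074 SE, edgeR adjusted p = 0.0016), and the correction left it at -0.43. KIF11, the motor that pushes spindle poles apart, was at 54.3, 46.0 and 56.5 CPM in the HMU libraries and 71.4, 73.5 and 73.8 CPM in the PBS libraries (log2 change -0.48 ± 0.089 SE, edgeR adjusted p = 0.0034), and the correction took its change to -0.15 (edgeR adjusted p = 0.029). KIF11 (gene ID 3832) lies on chromosome 10 from 92593130 to 92655395. KIF4A, a chromokinesin that works with PRC1 on the midzone, fell by a similar amount in each HMU library, with 40.5, 39.6 and 39.6 CPM in the HMU libraries and 49.8, 50.2 and 50.2 CPM in the PBS libraries (log2 change -0.33 ± 0.061 SE, edgeR adjusted p = 0.0034). KIF14, a kinesin of cytokinesis, was at 38.1, 25.5 and 45.8 CPM in the HMU libraries and 56.5, 56.0 and 54.7 CPM in the PBS libraries. Its HMU values spread widely around the lowest, HMU replicate 2 (log2 change -0.61 ± 0.19 SE, edgeR adjusted p = 0.029), and the call ended without HMU replicate 1 or any 1 PBS library (edgeR adjusted p from 0.074 to 0.082) and with no filter on low counts (0.054). The change was -0.27 with the correction and -0.41 without HMU replicate 2. KIF2C, the microtubule-depolymerising kinesin MCAK, had 74.8, 83.8 and 74.3 CPM in the HMU libraries and 81.1, 80.2 and 76.2 CPM in the PBS libraries (log2 change -0.028 ± 0.074 SE, edgeR adjusted p = 0.78). KIF23, the motor of the centralspindlin complex, had 86.6, 80.0 and 91.9 CPM in the HMU libraries and 85.6, 89.0 and 83.1 CPM in the PBS libraries (log2 change 0.0053 ± 0.075 SE, edgeR adjusted p = 0.96), with its sign set by the scaling: -0.28 with library sizes only and 0.20 with the correction.

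Of 5 centromere and kinetochore genes 4 fell, CENPA being the exception. CENPF, a large protein of the outer kinetochore, had 80.4, 66.5 and 86.6 CPM in HMU replicates 1 to 3, against 139, 135 and 130.3 CPM in PBS replicates 1 to 3. CENPF (gene ID 1063) lies on chromosome 1 from 214603195 to 214664571. HMU replicate 2 was again lowest, and every HMU library was below every PBS library (log2 change -0.79 ± 0.10 SE, edgeR adjusted p = 0.00057; -0.43 with the length and GC correction). NDC80, NUF2 and SPC25 encode subunits of the NDC80 complex, the main coupler of kinetochores to microtubules, and all 3 fell. NDC80 was at 27.3, 29.1 and 25.5 CPM in the HMU libraries and 39.97, 38.9 and 38.1 CPM in the PBS libraries (log2 change -0.51 ± 0.075 SE, edgeR adjusted p = 0.001). NDC80 (gene ID 10403) lies on chromosome 18 from 2571557 to 2616635. In this gene HMU replicate 2 was the highest of the HMU libraries, and its transcript is shorter than the median of tested genes. NUF2 was at 21.5, 20.2 and 20.3 CPM in the HMU libraries and 26.7, 25.9 and 24.7 CPM in the PBS libraries (log2 change -0.32 ± 0.070 SE, edgeR adjusted p = 0.0073), with a change of -0.19 under the correction. SPC25, the least counted of the 40, was at 8.47, 9.99 and 9.40 CPM in the HMU libraries and 11.8, 11.4 and 12.2 CPM in the PBS libraries (log2 change -0.34 ± 0.089 SE, edgeR adjusted p = 0.015). For SPC25 the call ended without PBS replicate 1, PBS replicate 3 or HMU replicate 1 (edgeR adjusted p = 0.054, 0.063 and 0.052). CENPA, the histone H3 variant of centromeres, had 27.4, 28.2 and 27.8 CPM in the HMU libraries and 25.8, 26.2 and 26.1 CPM in the PBS libraries. The HMU values lay just above the PBS values, but the gene was not called (log2 change 0.10 ± 0.063 SE, edgeR adjusted p = 0.24), and with library sizes only its change was -0.19.

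Among spindle microtubule proteins 4 of 6 fell. HMMR, a hyaluronan-binding protein of the spindle, had the largest fitted fall of the set. HMMR (gene ID 3161) lies on chromosome 5 from 163460632 to 163491941. It stood at 25.5, 20.6 and 26.4 CPM in HMU replicates 1 to 3, against 42.7, 43.9 and 45.0 CPM in PBS replicates 1 to 3. No HMU library came near the PBS range (log2 change -0.86 ± 0.10 SE, edgeR adjusted p = 0.00039), and the change was -0.56 with the length and GC correction. ASPM, the spindle pole protein linked to brain size, had 60.2, 42.2 and 73.5 CPM in the HMU libraries and 97.9, 93.0 and 87.2 CPM in the PBS libraries. ASPM (gene ID 259266) lies on chromosome 1 from 197084127 to 197146669. Its HMU libraries spread from a low replicate 2 to a replicate 3 nearer the PBS range (log2 change -0.66 ± 0.18 SE, edgeR adjusted p = 0.019). That call ended without HMU replicate 1, PBS replicate 1 or PBS replicate 2 (edgeR adjusted p = 0.059, 0.066 and 0.057), and the change was -0.47 without HMU replicate 2 and -0.24 with the correction. TPX2, the activator of AURKA on spindle microtubules, was at 219, 221 and 238 CPM in the HMU libraries and 273, 267 and 273 CPM in the PBS libraries (log2 change -0.26 ± 0.062 SE, edgeR adjusted p = 0.0099); without PBS replicate 1 it lay at the threshold (edgeR adjusted p = 0.05, not called). DLGAP5, a kinetochore-fibre protein also called HURP, was at 59.7, 60.6 and 61.1 CPM in the HMU libraries and 79.2, 75.4 and 72.0 CPM in the PBS libraries (log2 change -0.32 ± 0.066 SE, edgeR adjusted p = 0.0055), and its call was lost with the length and GC correction (-0.061, edgeR adjusted p = 0.47). PRC1, the bundler of the central spindle, had 117, 108 and 115 CPM in the HMU libraries and 127, 124 and 126 CPM in the PBS libraries (log2 change -0.15 ± 0.062 SE, edgeR adjusted p = 0.079), and NUSAP1, a nucleolar and spindle protein, had 96.7, 89.6 and 101 CPM in the HMU libraries and 105, 104 and 102 CPM in the PBS libraries (log2 change -0.11 ± 0.068 SE, edgeR adjusted p = 0.2). Neither of those 2 was called, though their groups did not overlap, and PRC1 was called lower without HMU replicate 2 (-0.11, edgeR adjusted p = 0.033). Genes annotated on the same strand share 57.6% of the exonic bases of PRC1 and 62.2% of those of NUSAP1 in GENCODE 29, so their counts are uncertain. PLK1 shared 11.6% and CCNA2 9.08% of their exonic bases with a gene on the opposite strand, and CENPA shared 6.96% with SLC35F6 on the same strand.

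ANLN, anillin, the scaffold of the contractile ring, fell. ANLN (gene ID 54443) lies on chromosome 7 from 36389862 to 36453791. It had 116, 89.8 and 130.3 CPM in HMU replicates 1 to 3, against 193, 189 and 182 CPM in PBS replicates 1 to 3. HMU replicate 2 was lowest and the groups were well apart (log2 change -0.75 ± 0.13 SE, edgeR adjusted p = 0.0024; -0.48 with the length and GC correction). ECT2, the exchange factor that activates RHOA for cytokinesis, was at 70.9, 51.7 and 83.0 CPM in the HMU libraries and 81.1, 83.8 and 79.3 CPM in the PBS libraries. HMU replicate 3 reached the PBS range and HMU replicate 2 was far below it (log2 change -0.25 ± 0.16 SE, edgeR adjusted p = 0.22), and the correction gave 0.059. The change was -0.077 without HMU replicate 2, and without HMU replicate 3 ECT2 was called lower (-0.41, edgeR adjusted p = 0.038). MKI67, the proliferation marker Ki-67 that coats mitotic chromosomes, had 231, 194 and 279 CPM in HMU replicates 1 to 3, against 297, 315 and 311 CPM in PBS replicates 1 to 3. It was called lower (log2 change -0.39 ± 0.12 SE, edgeR adjusted p = 0.033), but not without HMU replicate 1 or any 1 PBS library (edgeR adjusted p from 0.073 to 0.10) or with no filter on low counts (0.057), and its change was -0.15 with the correction. TOP2A, the topoisomerase that untangles sister chromatids, stood at 248, 181 and 269.7 CPM in the HMU libraries and 311, 291 and 293 CPM in the PBS libraries. No HMU library reached the PBS range and HMU replicate 2 was far below the others, and the gene was not called (log2 change -0.36 ± 0.14 SE, edgeR adjusted p = 0.065), and its change was -0.049 with the correction. It was called lower without HMU replicate 2 (-0.20, edgeR adjusted p = 0.0077) and without HMU replicate 3 (-0.48, edgeR adjusted p = 0.022).

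**Figure D2:**
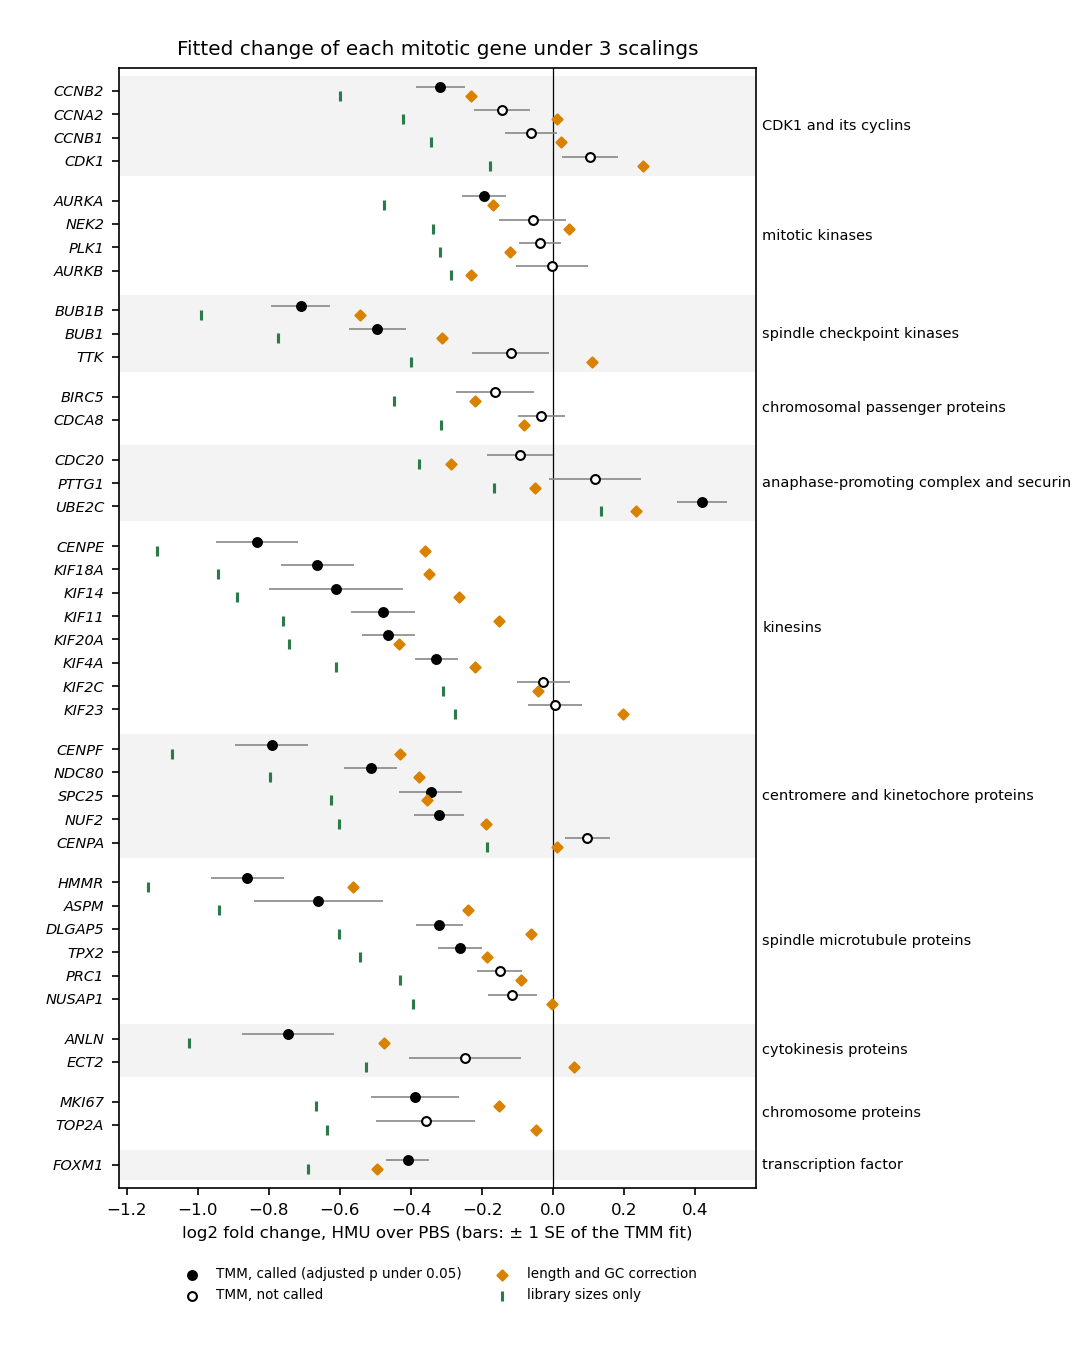
Fitted log2 fold change of HMU over PBS for each of the 40 genes, with TMM scaling (circles, filled where called, bars ± 1 SE), with the length and GC correction (diamonds) and with library sizes only (green ticks). The green ticks lie to the left of the circles throughout, and the diamonds lie to the right of the circles for long genes such as CENPE, KIF11 and TOP2A.

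Transcript length moved with these changes. Across the 40 genes the log2 fold change fell with the log2 length of the longest GENCODE 29 transcript (Pearson r = -0.67, Spearman rho = -0.63) and was higher at higher GC content (r = 0.53, rho = 0.53); the genes share the same 6 libraries and are not independent. The same direction ran through the whole transcriptome with a weaker correlation (Pearson r = -0.16 over the 16401 tested genes of known transcript length). In the tenth of tested genes with the shortest transcripts the median log2 fold change was 0.32, and in the tenth with the longest it was -0.20. Without HMU replicate 2 these medians were 0.18 and -0.088. Taken library by library, the 40 genes' log2 difference from the PBS mean was correlated with log2 length. That correlation was -0.61 in HMU replicate 1, -0.79 in HMU replicate 2 and -0.40 in HMU replicate 3. Over all tested genes of known length it was -0.12, -0.26 and -0.062 in HMU replicates 1 to 3.

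A correction removed each library's smooth trend on transcript length and GC content, and with it any treatment difference that follows those properties. With it 22 of the 40 genes were called lower and 3 higher, where 27.2% of tested genes were lower and 31.1% higher, and the median of the set was -0.18, against 0.014 over all genes. Of the 21 genes called lower on the TMM scale, 20 were called lower with it as well, the exception being DLGAP5. The 3 called higher were CDK1, UBE2C and KIF23. Without HMU replicate 2, and with no correction, 26 genes were called lower and 2 higher, CDK1 and UBE2C, where 29.7% and 29.4% of tested genes were. With both changes 26 were lower, the original 21 among them, and 5 higher (CDK1, TTK, UBE2C, KIF23 and ECT2), against a background of 30.0% and 33.5%. Across the 40 genes the corrected log2 fold change still correlated with log2 length at a Pearson r of -0.30. Beyond this correction, the part of transcript length in the falls was not tested.

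**Figure D3:**
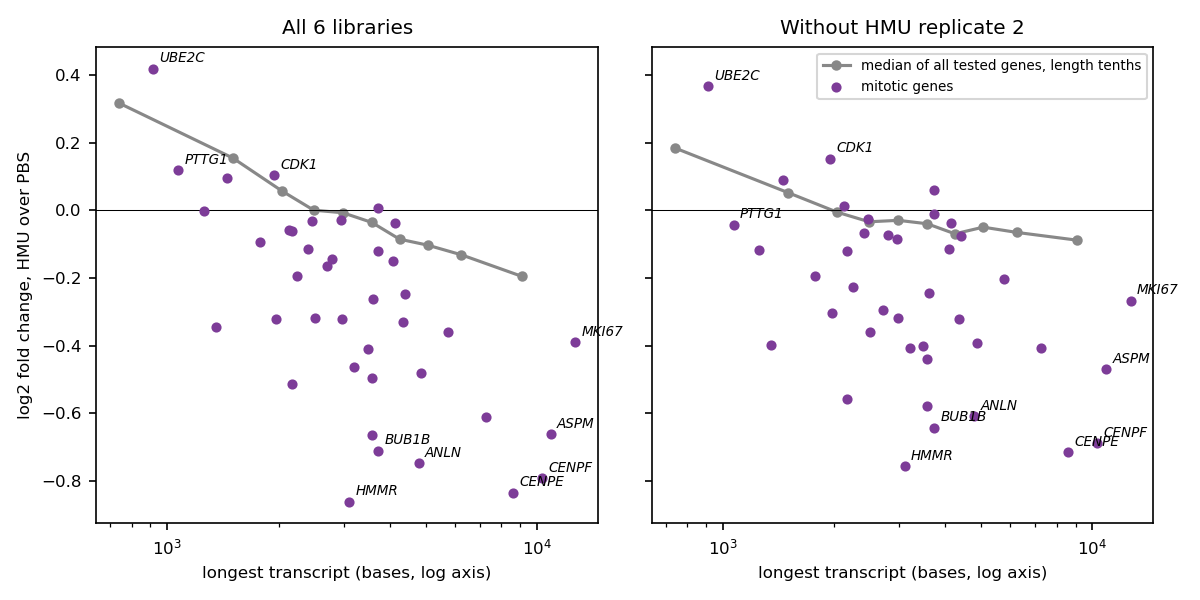
Log2 fold change of HMU over PBS against the length of the longest transcript (log axis) for the 40 mitotic genes (purple) with all 6 libraries on the left and without HMU replicate 2 on the right, and medians of all tested genes in equal bins of length (grey). Most purple points lie below the grey line in both panels, and the grey line is less steep without HMU replicate 2.

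By level per transcript length, UBE2C was the most abundant of the 40 in both groups, at 345 ± 4.60 TPM in HMU and 342 ± 8.53 TPM in PBS libraries (SD, n = 3 each, as for all TPM that follow). PTTG1 came next, with 216 ± 26.3 TPM in HMU and 262 ± 6.72 TPM in PBS libraries, and after it CDC20, with 183 ± 8.71 TPM and 259.6 ± 5.34 TPM. In PBS the last 2 were within 1 SD of each other. At the low end stood KIF14, with 9.12 ± 3.19 TPM in HMU and 18.3 ± 0.152 TPM in PBS libraries, and KIF18A, with 9.17 ± 1.81 TPM and 18.9 ± 0.675 TPM; these neighbours did not differ beyond their spread. The order changed most for ANLN, which was at 42.6 ± 10.8 TPM in HMU and 93.6 ± 2.17 TPM in PBS libraries, rank 19 in HMU and 12 in PBS. HMMR ranked 34 in HMU and 29 in PBS. In TPM all HMU libraries lay below all PBS libraries for 39 of the 40 genes, where 57.3% of tested genes did so, and above them for 0, where 12.8% did. The exception, UBE2C, overlapped.

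**Figure D4:**
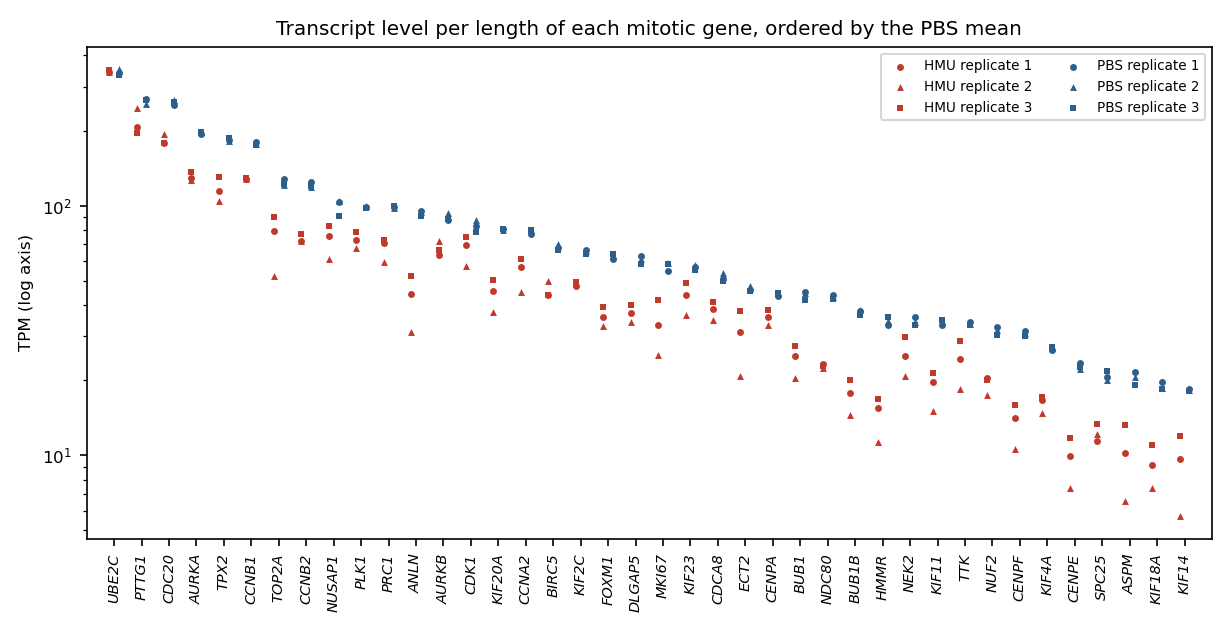
Deposited TPM (log axis) of the 40 mitotic genes in each library, ordered by the PBS mean, HMU in red and PBS in blue, marker shape by replicate. Levels run down from UBE2C on the left to KIF14 on the right, and red points lie below blue ones for every gene except UBE2C.

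Another 136 genes of mitosis, in 8 lists, gave the wider pathway. Of these, 54 were called lower and 14 higher, with a median log2 change of -0.20, where 24.9% of all tested genes were called lower and 24.8% higher. With the length and GC correction 53 were lower and 27 higher, with a median of -0.093, where 27.2% of all tested genes were lower and 31.1% higher. The counts of the single lists that follow are read against the same shares. Kinetochore and centromere genes were lower for 14 and higher for 2 of 27 (median -0.36), and NSL1, a subunit of the MIS12 complex, fell most in that list, with 7.22, 6.84 and 8.97 CPM in the HMU libraries and 17.1, 16.5 and 17.1 CPM in the PBS libraries (log2 change -1.14 ± 0.11 SE, edgeR adjusted p = 0.00015), while SKA2, its most abundant gene, was not called (log2 change 0.10 ± 0.060 SE, edgeR adjusted p = 0.19; -0.18 with library sizes only). Condensin and cohesin genes were lower for 10 and higher for 0 of 18 (median -0.41, and -0.18 with the correction, where 10 were lower and 1 higher). There SMC1A, a cohesin subunit, was at 319, 265 and 354 CPM in the HMU libraries and 436, 437 and 438 CPM in the PBS libraries (log2 change -0.48 ± 0.10 SE, edgeR adjusted p = 0.0064), and ESCO2, a cohesin acetyltransferase, had the largest change (log2 change -0.76 ± 0.11 SE, edgeR adjusted p = 0.0011). In the list of MuvB, DREAM and B-MYB, the regulators of CHR promoters, 7 of 12 were lower and 2 higher (median -0.35). LIN52, a MuvB subunit, was at 7.51, 7.61 and 8.10 CPM in the HMU libraries and 14.2, 14.3 and 12.6 CPM in the PBS libraries (log2 change -0.82 ± 0.087 SE, edgeR adjusted p = 0.00021), and TFDP1, a partner of E2F factors, fell less (log2 change -0.33 ± 0.064 SE, edgeR adjusted p = 0.0043). MYBL2, the gene of B-MYB, was near 0 (log2 change -0.052). Positive fitted changes in that list were those of E2F4 (0.57), LIN37 (0.51) and E2F5 (0.28). Only 2 of these were called higher, and with library sizes only 1 gene of the list was.

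The anaphase-promoting complex list was lower for 7 and higher for 3 of 18 (median -0.16, and 0.031 with the length and GC correction). Its subunit CDC23 had 30.9, 28.7 and 31.5 CPM in the HMU libraries and 53.5, 53.4 and 53.3 CPM in the PBS libraries, the largest change there (log2 change -0.81 ± 0.068 SE, edgeR adjusted p = 6.6e-05); a stretch of its exons overlaps KIF20A on the opposite strand. UBE2S, the chain-extending E2 enzyme, was not called (log2 change 0.15 ± 0.14 SE, edgeR adjusted p = 0.41; -0.14 with library sizes only). Spindle motors and microtubule proteins were lower for 5 and higher for 1 of 25 (median -0.10), a share of lower calls under that of all tested genes, and for 10 and 3 of 25 with the correction. The largest change was that of CKAP2 (log2 change -0.67 ± 0.086 SE, edgeR adjusted p = 0.00055), and CKAP5, the most abundant, was not called (log2 change -0.17 ± 0.10 SE, edgeR adjusted p = 0.18). Spindle checkpoint and cohesion protectors were lower for 5 and higher for 2 of 14 (median -0.053). With the correction these counts turned round, to 2 lower and 5 higher (median 0.032). SPDL1, the spindly adaptor of dynein, fell (log2 change -0.54 ± 0.067 SE, edgeR adjusted p = 0.00045), while BUB3, the partner of BUB1 and BUB1B, was not called (log2 change 0.11 ± 0.058 SE, edgeR adjusted p = 0.14; -0.17 with library sizes only). CDK1 activity regulators split, 3 lower and 2 higher of 14 (median 0.014, and -0.015 with the correction): the phosphatase gene CDC25C fell, with 8.99, 9.40 and 8.99 CPM in the HMU libraries and 14.0, 12.3 and 13.1 CPM in the PBS libraries (log2 change -0.53 ± 0.082 SE, edgeR adjusted p = 0.0015), and CDC25B rose, with 275, 275 and 265 CPM in the HMU libraries and 213, 207 and 209.8 CPM in the PBS libraries (log2 change 0.37 ± 0.057 SE, edgeR adjusted p = 0.0013; 0.093 with library sizes only). In the cytokinesis list 3 of 8 were lower and 2 higher (median -0.15), and with the correction 2 were lower and 5 higher (median 0.17). The 2 higher ones on the TMM scale were CHMP4B, of the membrane-severing ESCRT-III complex, with 233, 281 and 226 CPM in the HMU libraries and 108, 104 and 109 CPM in the PBS libraries (log2 change 1.20 ± 0.093 SE, edgeR adjusted p = 4.4e-05), and the septin gene SEPTIN9 (log2 change 1.07 ± 0.063 SE, edgeR adjusted p = 1.1e-05), both of which also act outside mitosis.

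**Figure D5:**
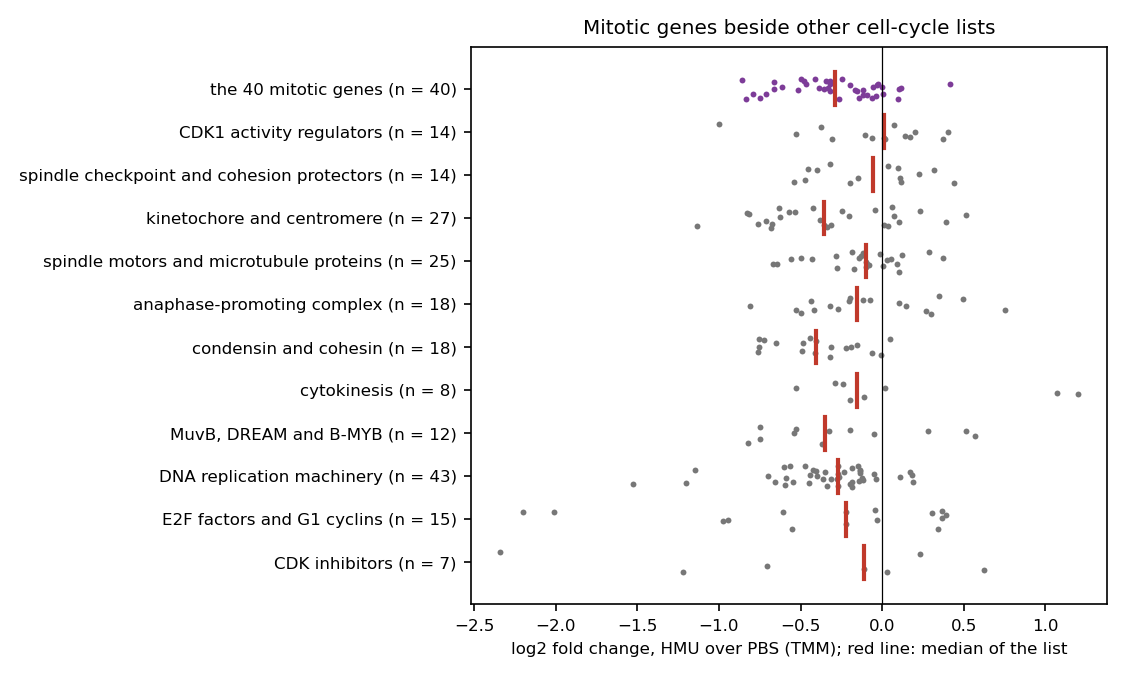
Log2 fold change of HMU over PBS (TMM) of every tested gene in the set of 40 (purple) and in 11 other lists of cell-cycle genes (grey), with the median of each list as a red line. Medians on this scale lie left of 0 for all lists but the CDK1 activity regulators, while with the length and GC correction those of the anaphase-promoting complex, the checkpoint and cohesion protectors and the cytokinesis list were above 0, and the set of 40 has no gene beyond a change of -0.86.

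The genes of S phase and of G1 were set beside the mitotic genes because they act earlier in the cycle. Of 43 DNA replication genes 25 were lower and 0 higher, where 24.9% of all tested genes were lower and 24.8% higher, with a median of -0.27, beside -0.29 for the mitotic set. PRIM1, the catalytic subunit of primase, was at 8.11, 7.80 and 9.22 CPM in the HMU libraries and 23.5, 24.9 and 24.1 CPM in the PBS libraries (log2 change -1.53 ± 0.087 SE, edgeR adjusted p = 9.6e-06), a larger fitted change than that of any of the 40 mitotic genes, and RRM1, of ribonucleotide reductase, fell less (log2 change -0.27 ± 0.057 SE, edgeR adjusted p = 0.006). With the length and GC correction the medians were -0.22 for replication and -0.18 for the mitotic set. No difference between the 2 lists was tested. Of 15 E2F factors and G1 cyclins 7 were lower and 4 higher (median -0.22), the share of higher calls being near that of all tested genes. E2F2, an activating E2F, had 3.21, 2.99 and 3.78 CPM in the HMU libraries and 14.4, 15.6 and 16.0 CPM in the PBS libraries (log2 change -2.20 ± 0.11 SE, edgeR adjusted p = 5.3e-06), and CCND1, cyclin D1, fell slightly (log2 change -0.22 ± 0.060 SE, edgeR adjusted p = 0.018).

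The CDK inhibitors differed among themselves. CDKN1A, the p53 target p21, had 220.4, 210.4 and 199.9 CPM in the HMU libraries and 200.3, 199.9 and 218 CPM in the PBS libraries and was not called (log2 change 0.028 ± 0.070 SE, edgeR adjusted p = 0.76). CDKN2C (log2 change -2.34 ± 0.10 SE, edgeR adjusted p = 2.8e-06), CDKN2B (log2 change -1.22 ± 0.12 SE, edgeR adjusted p = 0.00013) and CDKN1C (log2 change -0.71 ± 0.11 SE, edgeR adjusted p = 0.0012) fell. CDKN2C, an inhibitor of CDK4 and CDK6, was at 1.84, 1.98 and 1.95 CPM in the HMU libraries and 9.02, 10.4 and 9.83 CPM in the PBS libraries, without overlap. CDKN2A, the gene of p16, rose, with 183, 235 and 168 CPM in the HMU libraries and 128, 128 and 124 CPM in the PBS libraries (log2 change 0.63 ± 0.12 SE, edgeR adjusted p = 0.0041; 0.34 with library sizes only), and HMU replicate 2 was the highest. CDKN1B (log2 change -0.11 ± 0.088 SE, edgeR adjusted p = 0.32) and CDKN2D (log2 change 0.23 ± 0.12 SE, edgeR adjusted p = 0.14; -0.050 with library sizes only) were not called.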

How the data were processed

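Libraries were made with a stranded mRNA kit, per the labels. Tools listed in the submitters' processing notes are HISAT2 2.1.0 and StringTie 2.1.3b besides FastQC 0.11.7 and Trimmomatic 0.38, with build GRCh38. The counting tool, annotation release, handling of multi-mapped reads and strand use were not given in the sources used here. One deposited table holds read counts (whole numbers, taken as not normalised), FPKM (per length and library, by the authors) and TPM (scaled to one fixed sum per library), per the file headers. Its treated columns are headed HMO and were taken as the HMU samples of the same number.

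Counts were tested in R 4.3.3 with edgeR 4.0.16: filterByExpr left 17990 genes, TMM scaling (factors 0.893 to 0.920 for HMU, 1.10 to 1.11 for PBS), glmQLFit and glmQLFTest with group as the only term, Benjamini-Hochberg adjustment over all tested genes and calls under 0.05. SE is the log2 fold change over the square root of F. CPM are TMM-scaled. The biological coefficient of variation was 11.9%. The fits were tested on simulated data with few changed genes, no outlying library and no trend on transcript length. That test cannot show how they behave on these libraries.

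Alternatives were DESeq2 1.42.0, voom of limma 3.58.1, RLE, library sizes only, other filters, a threshold of 0.01, limma on log2(FPKM + 1) and on log2(TPM + 1) or log2(TPM + 0.1), a replicate block and leaving out each library. Added after seeing the data were a loess (span 0.5) offset on transcript length and GC share, taken from the longest GENCODE 29 transcript (found for 91.2% of tested genes), and that offset without HMU replicate 2. Coordinates and promoters are RefSeq's (GRCh38.p14), matched by gene ID. The members and lists were chosen with earlier results of these data known. Each member is named, and of each other list the most abundant gene and the called gene with the largest change. Named besides were every CDK inhibitor and, of the MuvB list, MYBL2, LIN37, E2F4 and E2F5. No replicates were pooled.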

Additional observations from a re-analysis of the deposited data

How the results depend on the processing

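With library sizes only, 37 members were lower and 0 higher (median -0.57), 98 and 4 of the other mitotic genes, and 7855 and 2413 of all tested genes; CDK1, PTTG1, KIF23 and CENPA were at -0.18, -0.17, -0.28 and -0.19. On log2(TPM + 1), 39 members were lower and 0 higher (median -0.68), 108 and 3 of the other mitotic genes, and 9153 and 1975 of all tested genes; CDK1, PTTG1, KIF23 and CENPA were at -0.30, -0.29, -0.40 and -0.30. On log2(TPM + 0.1), 39 members were lower and 0 higher (median -0.69), 108 and 3 of the other mitotic genes, and 9126 and 1965 of all tested genes; CDK1, PTTG1, KIF23 and CENPA were at -0.30, -0.29, -0.40 and -0.31. On log2(FPKM + 1), 37 members were lower and 0 higher (median -0.53), 93 and 4 of the other mitotic genes, and 7612 and 2441 of all tested genes; CDK1, PTTG1, KIF23 and CENPA were at -0.17, -0.16, -0.26 and -0.17. At an adjusted p under 0.01, 16 members were lower and 1 higher, and 39 other mitotic genes were lower and 6 higher. Of all tested genes 2902 were lower and 2987 higher at that threshold. With the length and GC correction members had 22 lower and 3 higher calls (median -0.18) and other mitotic genes 53 lower and 27 higher. Signs turned there to 0.021 for CCNB1, 0.011 for CCNA2, 0.044 for NEK2, 0.11 for TTK, -0.051 for PTTG1 and 0.059 for ECT2. With that correction and without HMU replicate 2 there were 26 lower and 5 higher members (median -0.18). Other mitotic genes had 65 lower and 34 higher calls, where 30.0% of tested genes were lower and 33.5% higher. Signs turned there to 0.056 for CCNA2, 0.11 for NEK2, 0.16 for TTK, -0.13 for PTTG1, 0.034 for NUSAP1, 0.15 for ECT2 and 0.0062 for TOP2A. AURKB, near 0, was at 0.0055 with DESeq2 and 0.0055 with RLE. Leaving out 1 library gave 15 to 26 lower and 1 to 2 higher members, a median of -0.31 to -0.26, 41 to 73 lower and 7 to 22 higher other mitotic genes (7, 8 and 7 higher without PBS replicates 1, 2 and 3, and 22 without HMU replicate 2), where all tested genes had 3290 to 5481 lower and 3334 to 5426 higher, and signs that turned for AURKB (-0.12 to 0.052), KIF23 (-0.048 to 0.059), NEK2 (-0.15 to 0.014) and PTTG1 (-0.043 to 0.22). A replicate block left 21 lower and 1 higher members and 4250 lower and 4173 higher genes in all. With it AURKA was no longer called (edgeR adjusted p = 0.076) and TOP2A was called lower (edgeR adjusted p = 0.037). Same-numbered libraries deviated with correlations of -0.019, 0.035 and 0.048, and the other pairs with -0.060 to 0.026. Such small values cannot decide whether the numbers pair the samples. The cause of the shifts between settings was not tested.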
